A study of Mus musculus with 30 samples.

Results

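Fragments of the mitochondrial serine tRNAs, mt-Ts1 and mt-Ts2, were followed through 30 small RNA libraries of mouse cortex. A read belonged to one of them where its whole sequence matched, in the sense direction and without a mismatch, the tRNA with the CCA tail added, and its first and last base then gave the fragment. Of the 22 mitochondrial tRNAs these are 2. They gave 676 (mt-Ts1) and 799 (mt-Ts2) distinct fragments, 1475 of the 17451 fragments of all mitochondrial tRNAs, in libraries that together held 115567614 distinct sequences by PANDORA-seq and 7257380 by traditional-seq.

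The mice were 6 months old, on the C57BL/6J background and of both sexes. WT mice were littermates of the AD mice, which were hemizygous 5xFAD animals, a strain that carries human transgenes with familial Alzheimer's disease mutations under the neuronal Thy1 promoter. Both groups shared strain and age and differed by the transgenes. The labels do not give the sex of each mouse, so the balance of the sexes between WT and AD is not known here and was not adjusted for. RNA of 15 to 50 nt was cut from a gel. In traditional-seq (7 WT and 7 AD libraries) adapters were joined to it directly. In PANDORA-seq (8 WT and 8 AD libraries) it was first treated with T4 polynucleotide kinase (T4PNK), which makes damaged or phosphate-blocked RNA ends open to ligation, and with AlkB, a demethylase that removes methyl groups from bases where these stop reverse transcription.

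Mitochondria read serine codons with a pair of tRNAs. The one encoded by mt-Ts1 has the anticodon TGA (UGA in RNA) and reads UCN codons, and the one encoded by mt-Ts2 has the anticodon GCT and reads AGY codons. The AGY tRNA of mammals is known for lacking the D arm of the usual cloverleaf. The UCN tRNA is known to carry 3-methylcytidine at base 32, the first base of the anticodon loop, a methyl group of the kind that AlkB removes. Enzymes cut tRNAs into fragments that begin at the 5′ end, end at the 3′ end or come from the inside, and such fragments of mitochondrial tRNAs are called mt-tsRNAs.

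The sequences of both tRNAs are shown because every fragment is named below by its bases, counted from 1 at the 5′ end of the tRNA. Capitals mark the anticodon, and the last 3 bases are the CCA tail, which an enzyme adds and the genome does not encode.
mt-Ts1: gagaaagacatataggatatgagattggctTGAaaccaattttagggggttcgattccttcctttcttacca
mt-Ts2: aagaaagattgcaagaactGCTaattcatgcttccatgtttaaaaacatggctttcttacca

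mt-Ts1 lies at chrM:6870-6938 on the minus strand and mt-Ts2 at chrM:11613-11671 on the plus strand (GRCm38, GENCODE M21), and each is a single-exon tRNA gene. Without the tail mt-Ts1 is 69 nt long and mt-Ts2 59 nt, against 65 to 75 nt for the other 20 mitochondrial tRNAs. The anticodon of mt-Ts1 begins after 30 bases and that of mt-Ts2 after 19, against 26 to 35 in the other 20. Between the acceptor stem and the anticodon stem mt-Ts1 has 16 nt, in which bases 9 to 13 pair with bases 17 to 21 as a D arm would, and mt-Ts2 has 5 nt with no such repeat. The letters of the reference thus place the missing D arm in mt-Ts2, and mt-Ts1 was not treated as the tRNA without one. After the anticodon stem mt-Ts2 has a repeat of 7 pairs, bases 34 to 40 with bases 45 to 51. The longest run the tRNAs share is 11 bases, shorter than the shortest read kept (15 nt), so that no fragment could belong to both. Of the 2356 fragments of 15 to 45 nt that both tRNAs could give, 33, all of at most 18 nt, also occur in a transcript of another gene.

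PANDORA-seq libraries held 54926347 to 105876141 reads and traditional-seq libraries 9370669 to 17053412, so that the same level rests on fewer reads in traditional-seq. As a check of the tissue, the brain microRNA miR-9-5p had 21.3 to 115 RPM (reads on a per-million scale of all reads of the library) in PANDORA-seq and 4511 to 19457 RPM in traditional-seq, the heart microRNA miR-208a-3p had 0 in every library and the muscle microRNA miR-206-3p at most 22.5 RPM. One feature of the libraries bears on the comparisons between genotypes: reads of 43 to 45 nt made up 11.2% to 21.5% of each WT PANDORA-seq library and 2.13% to 10.7% of each AD one, and none were in traditional-seq, where the longest read had 42 nt. RNA length, depth and library makeup also differed between the protocols. Levels were also compared with reads of 15 to 40 nt and as shares of mitochondrial tRNA reads, and the part of depth in any difference between protocols was not tested.

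mt-Ts2 was the most abundant mitochondrial tRNA in every one of the 30 libraries, and mt-Ts1 was of middle rank. In PANDORA-seq, mt-Ts2 fragments reached 5890 to 29562 RPM (median 11021) in WT mice and 3925 to 30895 (median 14165) in AD mice. In traditional-seq they reached 21115 to 70704 RPM (median 35808) in WT mice and 21727 to 44955 (median 28485) in AD mice. WT and AD overlapped in both protocols.

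mt-Ts1 fragments reached 35.9 to 240.5 RPM (median 58.3) in WT and 21.8 to 155 (median 78.7) in AD libraries by PANDORA-seq. By traditional-seq they reached 302 to 1642 RPM (median 434) in WT and 290 to 640 (median 411) in AD libraries. The highest of these values, 1642 RPM in WT traditional-seq replicate 2, stood apart from the other 6 WT libraries, the highest of which had 650 RPM. mt-Ts1 ranked 8 to 12 of the 22 mitochondrial tRNAs in PANDORA-seq and 5 to 11 in traditional-seq.

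**Figure D1:**
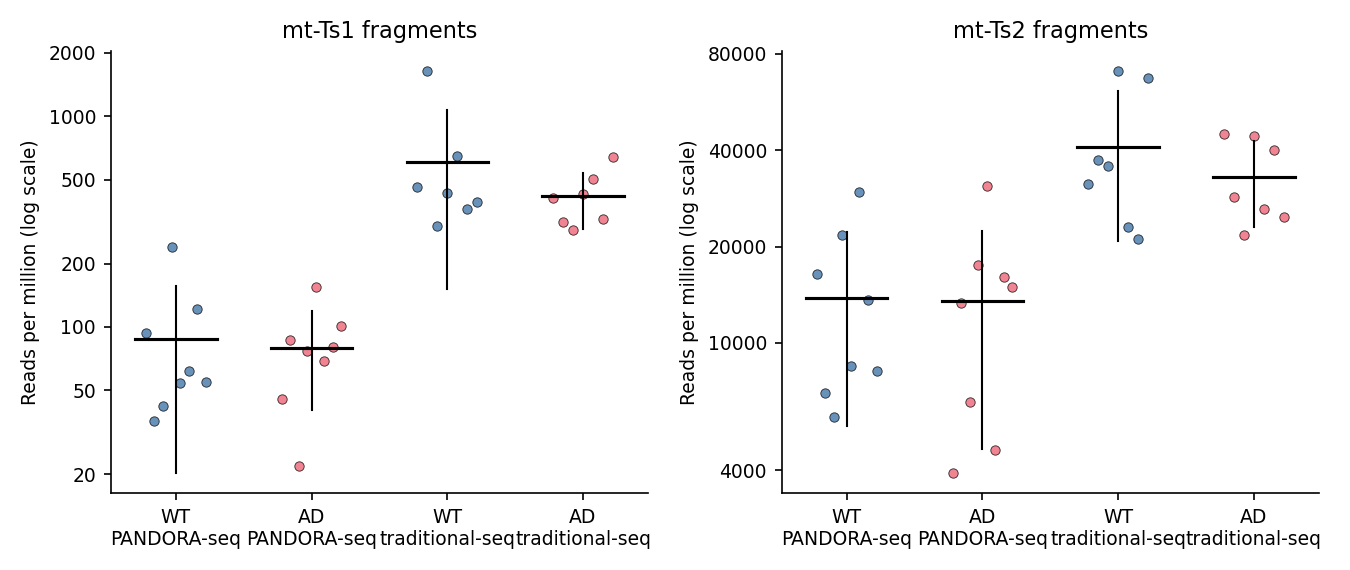
Levels in RPM (log axis) of mt-Ts1 and mt-Ts2 fragments in each library by genotype and protocol; points are libraries, horizontal lines the mean and vertical lines 1 SD on each side. WT and AD points overlap in every panel, and the PANDORA-seq points of mt-Ts1 all lie under the traditional-seq points.

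mt-Ts2 took 64.3% ± 10.5 (SD, n = 16) of all mitochondrial tRNA reads in PANDORA-seq and 71.1% ± 8.23 (SD, n = 14) in traditional-seq, and mt-Ts1 took 0.429% ± 0.170 and 1.07% ± 0.654. In PANDORA-seq the mt-Ts2 share was 50.2% to 69.2% in WT libraries. In AD libraries it was 48.9%, 51.3%, 70.6%, 73.0%, 74.5%, 75.3%, 76.9% and 80.1%. In traditional-seq it was 58.9% to 84.5% in WT and 60.6% to 78.3% in AD libraries. The difference between genotypes in this share was not tested. Per nt of tRNA, the level of mt-Ts2 was 209 ± 114 (SD, n = 16) times that of mt-Ts1 in PANDORA-seq, with 78.5 in the lowest and 556 in the highest library. In traditional-seq it was 102 ± 53.6 (SD, n = 14) times that of mt-Ts1, from 26.4 to 199. The mean log2 ratio of mt-Ts1 to mt-Ts2 per nt was −7.54 by PANDORA-seq against −6.46 by traditional-seq, a difference of −1.09 (two-sided permutation test with 100000 shuffles, p = 0.00055). The ranges of this ratio overlapped between the protocols.

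**Figure D2:**
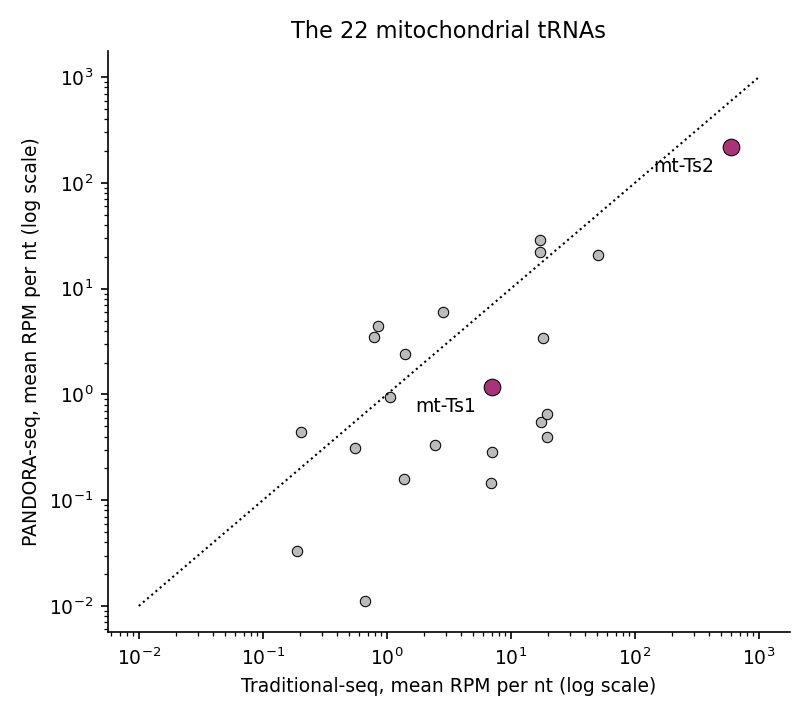
Mean level per nt (RPM per nt, log axes) of the 22 mitochondrial tRNAs in traditional-seq (horizontal) and PANDORA-seq (vertical); each point is 1 tRNA, the dotted line marks equal levels, and the serine tRNAs are the large points. mt-Ts2 lies at the top of both axes, at 220.5 by PANDORA-seq against 596 by traditional-seq, and mt-Ts1 at 1.16 against 7.10.

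Both serine tRNAs had a lower RPM in PANDORA-seq than in traditional-seq, as did 14 of the 22 mitochondrial tRNAs (63.6%); 19 of the 22 differed between protocols in either direction (86.4%). mt-Ts1 was 6.36-fold higher in traditional-seq (log2 difference −2.67, adjusted p = 1.57e-05 over 22 tRNAs by a permutation test with 100000 shuffles). The protocols did not overlap for it, since the highest PANDORA-seq library had 240.5 RPM and the lowest traditional-seq library 290 RPM. Without WT traditional-seq replicate 2, an alternative chosen after seeing the data, the log2 difference was −2.53. mt-Ts2 was 2.999-fold higher in traditional-seq (log2 difference −1.58, adjusted p = 1.57e-05). Here 3 of 16 PANDORA-seq libraries lay above the lowest traditional-seq library. As a share of mitochondrial tRNA reads in place of all reads, the mt-Ts2 difference was −0.15 on the log2 scale and did not pass the threshold (adjusted p = 0.0616, permutation test). mt-Ts2 itself was on average the larger part of these reads, which dampens any difference in its share. The mt-Ts1 difference was −1.24 on this scale (adjusted p = 2.59e-05, permutation test), which largely repeats its ratio to mt-Ts2. For the RPM of both tRNAs the raw p was 1e-05, the smallest that the shuffles can give. In 14 pairs of libraries whose file names share a code, which is not stated to be a mouse, the log2 difference was −2.60 for mt-Ts1 (p = 0.000122, the smallest that 14 pairs can give) and −1.44 for mt-Ts2 (p = 0.000366, exact sign-flip permutation tests).

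The protocols also differed in which fragments were read. The 4 most abundant fragments of mt-Ts2 in PANDORA-seq were bases 1 to 40, 1 to 39, 2 to 40 and 3 to 40, and the first alone held 94.2% ± 1.33 (SD, n = 16) of its reads. In traditional-seq they were bases 1 to 21, 1 to 19, 5 to 21 and 3 to 21, and the first held 34.5% ± 6.80 (SD, n = 14). These leading sequences are shown because none was among the 4 most abundant in both protocols. The first ends at the last base of the first strand of the 7-pair repeat, and the others end within the anticodon or its loop.
mt-Ts2 bases 1 to 40: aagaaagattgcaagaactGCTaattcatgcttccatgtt
mt-Ts2 bases 1 to 21: aagaaagattgcaagaactGC
mt-Ts2 bases 1 to 19: aagaaagattgcaagaact

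The 40-nt fragment of mt-Ts2 reached 5498 to 28282 RPM (median 10387) in WT and 3712 to 29476 RPM (median 13323) in AD PANDORA-seq libraries. That single sequence was the 2nd to 17th most abundant of all sequences of each PANDORA-seq library, and made up 26.2% ± 11.9 (SD, n = 16) of all reads of 40 nt, from 9.002% to 47.3%. In traditional-seq it had 0 to 16.9 RPM in WT and 1.42 to 11.6 RPM in AD libraries. Reads of 40 nt of any kind made up 4.66% ± 0.838 (SD, n = 16) of PANDORA-seq libraries and 0.0845% ± 0.0562 (SD, n = 14) of traditional-seq libraries, and the part of this length difference in the result was not tested.

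The 21-nt fragment of mt-Ts2 went the other way. It had 6687 to 30232 RPM (median 13473) in WT and 6239 to 18547 RPM (median 8958) in AD traditional-seq libraries, where it was the 4th to 23rd most abundant sequence, and 1.49 to 12.9 RPM in the 16 PANDORA-seq libraries. The 19-nt fragment had 1869 to 20637 RPM in traditional-seq and 0.511 to 8.36 RPM in PANDORA-seq. For each of these fragments the protocols did not overlap. The mean length of mt-Ts2 reads was 39.8 nt ± 0.0213 (SD, n = 16) in PANDORA-seq and 19.97 nt ± 0.388 (SD, n = 14) in traditional-seq.

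mt-Ts1 fragments ended at 57 different positions in PANDORA-seq and at 53 in traditional-seq, and mt-Ts2 fragments at 48 in each. The 4 most abundant fragments in PANDORA-seq were bases 1 to 31, 1 to 29, 1 to 25 and 1 to 30, and in traditional-seq bases 1 to 21, 1 to 26, 10 to 26 and 11 to 26. The leading ones are shown because the PANDORA-seq fragment reaches the first anticodon base and includes base 29, the site of base 32 in the usual numbering, while the traditional-seq fragments stop before it.
mt-Ts1 bases 1 to 31: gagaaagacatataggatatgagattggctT
mt-Ts1 bases 1 to 26: gagaaagacatataggatatgagatt
mt-Ts1 bases 1 to 21: gagaaagacatataggatatg

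The 31-nt fragment of mt-Ts1 reached 8.21 to 112 RPM (median 16.0) in WT and 4.63 to 60.3 RPM (median 20.5) in AD PANDORA-seq libraries, and held 30.3% ± 9.46 (SD, n = 16) of mt-Ts1 reads there. In traditional-seq it had 0.117 to 1.48 RPM. The 26-nt fragment had 49.4 to 222 RPM (median 107) in WT and 57.1 to 241 RPM (median 115) in AD traditional-seq libraries, and 0.237 to 2.63 RPM in PANDORA-seq. The 21-nt fragment had 38.5 to 156 RPM in 6 WT traditional-seq libraries and 1225 RPM in WT replicate 2, where it made up 74.6% of mt-Ts1 reads, so that this library's high mt-Ts1 level lay mostly in 1 sequence. In AD traditional-seq libraries it had 9.66 to 144 RPM and in PANDORA-seq 0 to 0.629 RPM. Over all libraries of a protocol, 46 fragments held 90% of mt-Ts1 reads in PANDORA-seq and 31 in traditional-seq, against 1 and 9 for mt-Ts2.

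**Figure D3:**
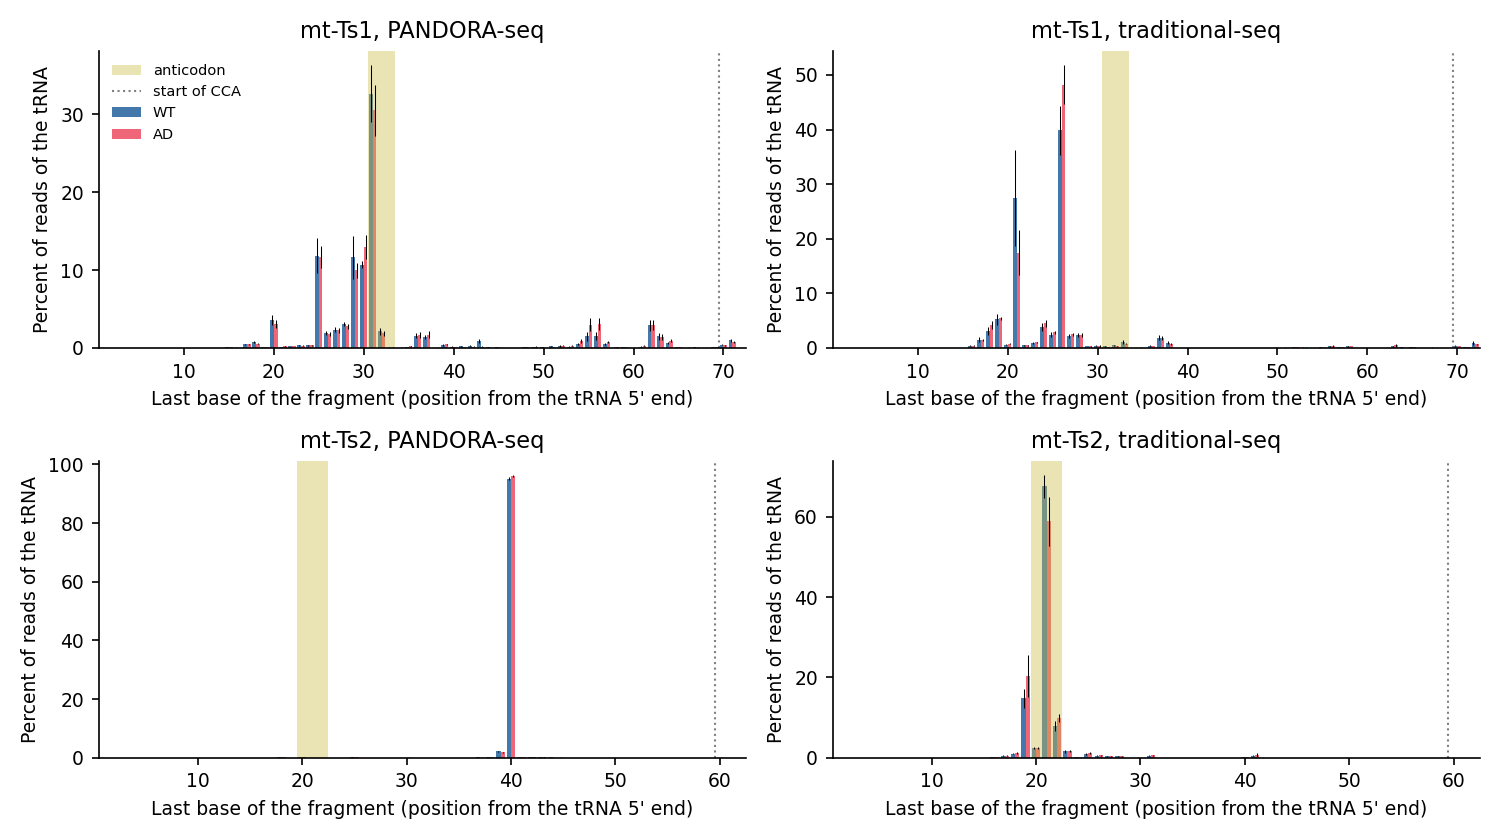
Percent of a tRNA's reads whose last base lies at each position, for mt-Ts1 (top) and mt-Ts2 (bottom) in PANDORA-seq (left) and traditional-seq (right); bars are means over the WT (blue) or AD (red) libraries, error bars the SEM, shading marks the anticodon and the dotted line the start of CCA. mt-Ts2 reads end at base 40 in PANDORA-seq and mostly at bases 19, 21 and 22 in traditional-seq, and mt-Ts1 reads end mostly at base 25 and bases 29 to 31 in PANDORA-seq and at bases 21 and 26 in traditional-seq.

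Most reads of both tRNAs were 5′ fragments, which begin at base 1. For mt-Ts2 they made up 98.2% ± 0.259 (SD, n = 16) of its reads in PANDORA-seq and 67.5% ± 8.60 (SD, n = 14) in traditional-seq, a difference of 30.7 percentage points (adjusted p = 1.5e-05 over 22 tRNAs and 3 fragment types, permutation test), with no overlap between 97.6% and 83.2%. For mt-Ts1 they made up 76.5% ± 9.82 (SD, n = 16) and 68.9% ± 8.82 (SD, n = 14), a difference of 7.59 points (adjusted p = 0.0391, permutation test) with wide overlap, which did not pass the threshold in WT libraries alone (adjusted p = 0.146) or AD libraries alone (adjusted p = 0.195). With 1 mismatch allowed the mt-Ts1 difference was 17.2 points (adjusted p = 6.87e-05, permutation test). Of the 66 shares tested, 60 differed between protocols (90.9%), and the 5′ share was higher in PANDORA-seq for 19 of the 22 tRNAs (86.4%) and lower for 2 (9.09%). Fragments from the inside of the tRNA made up 1.78% of mt-Ts2 reads in PANDORA-seq and 32.5% in traditional-seq (adjusted p = 1.5e-05, permutation test), and 22.1% and 29.7% of mt-Ts1 reads (adjusted p = 0.0321, permutation test); the internal share was lower in PANDORA-seq for 18 of the 22 tRNAs (81.8%) and higher for 2 (9.09%). The internal mt-Ts2 reads of traditional-seq were led by bases 5 to 21 (1337 to 6775 RPM) and 3 to 21 (1445 to 5926 RPM), which end where the leading 5′ fragment ends.

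Where 5′ fragments ended relative to the anticodon loop separated the tRNAs in opposite directions, in a comparison chosen after seeing the data. Of the 5′ fragments of mt-Ts1, 63.7% ± 13.3 (SD, n = 16) ended within the loop in PANDORA-seq and 1.07% ± 0.879 (SD, n = 14) in traditional-seq, where 98.8% ended before it. Of those of mt-Ts2, 0.418% ± 0.0550 (SD, n = 16) ended within the loop in PANDORA-seq, where 99.6% ended after it, and 94.5% ± 2.91 (SD, n = 14) in traditional-seq. Neither tRNA's protocols overlapped (adjusted p = 2e-05 for each, permutation test). With 1 mismatch allowed the shares within the loop were 70.2% and 3.25% for mt-Ts1 and 0.402% and 94.9% for mt-Ts2 (adjusted p = 2.2e-05 for each, permutation test). The share differed between protocols for 18 of the 22 mitochondrial tRNAs (81.8%), higher in PANDORA-seq for 13 of the 22 (59.1%), as for mt-Ts1, and lower for 5 of the 22 (22.7%), as for mt-Ts2.

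Fragments that held the 3′ end were rare. In PANDORA-seq they made up 1.36% ± 0.627 (SD, n = 16) of mt-Ts1 reads and 0.0170% ± 0.00929 (SD, n = 16) of mt-Ts2 reads. In traditional-seq they made up 1.33% ± 0.956 (SD, n = 14) and 0.00799% ± 0.00505 (SD, n = 14). The mt-Ts2 share was higher in PANDORA-seq (adjusted p = 0.00262, permutation test), as it was for 15 of the 22 tRNAs (68.2%), but not past the threshold for reads of 15 to 40 nt (adjusted p = 0.276) or in AD libraries alone (adjusted p = 0.137), and the difference in the mt-Ts1 share did not pass the test (adjusted p = 0.934, permutation test). The most abundant 3′ fragments were bases 50 to 71 of mt-Ts1 and 23 to 61 of mt-Ts2 in PANDORA-seq, and bases 58 to 72 and 44 to 60 in traditional-seq, each at a mean of at most 0.742 RPM in its protocol. The 3′ fragment of mt-Ts2 in PANDORA-seq begins right after the anticodon, but no counterpart that ends at the anticodon was among the leading PANDORA-seq fragments.

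The tail of the 3′ fragments differed between protocols for both tRNAs. The complete CCA stood at the end of 0 of 1292 reads of mt-Ts1 3′ fragments over the 16 PANDORA-seq libraries, which allows a share of up to 0.232%, and 60.3% ± 17.1 (SD, n = 14) of those of traditional-seq, from 31.1% to 100%. For mt-Ts2 it stood at the end of 0.724% ± 1.13 (SD, n = 16) and 20.8% ± 13.9 (SD, n = 14). The adjusted p was 1e-05 for each tRNA, the smallest that the shuffles can give, and the share was lower in PANDORA-seq for 22 of the 22 mitochondrial tRNAs (100%), the serine tRNAs included. PANDORA-seq 3′ fragments ended mostly in CC, 63.5% ± 13.3 (SD, n = 16) of them for mt-Ts1 and 55.5% ± 12.02 (SD, n = 16) for mt-Ts2. These shares rest on 7 to 359 reads of 3′ fragments a library, and limits of this kind cover counting error only, since the reads carry no molecular identifiers.

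At base 32 of the anticodon loop, where the UCN tRNA is known to be methylated, the serine tRNAs differed from each other in both coverage and base calls. Reads that match without a mismatch and span it made up 62.2% ± 10.7 (SD, n = 16) of mt-Ts1 reads in PANDORA-seq and 5.51% ± 2.62 (SD, n = 14) in traditional-seq, with 37.9% in the lowest PANDORA-seq library and 10.5% in the highest traditional-seq library. This difference of 56.7 points passed the test (adjusted p = 1.29e-05 over 22 tRNAs, permutation test). The exact match leaves out reads with another base at the site, which were on average the larger part of the traditional-seq reads over it (67.4%, described next). With 1 mismatch allowed, an alternative chosen after seeing the data, the shares of mt-Ts1 were 70.4% ± 8.32 (SD, n = 16) and 16.4% ± 7.37 (SD, n = 14), from 55.6% and up to 30.5%, a difference of 54.1 points (adjusted p = 1.29e-05, permutation test). For mt-Ts2 the shares of exact matches were 99.96% and 99.3%, a difference of 0.680 points with the same adjusted p, with nearly all reads over the site in both protocols. The share differed for 18 of the 22 mitochondrial tRNAs (81.8%) and was higher in PANDORA-seq for 14 (63.6%).

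Reads with 1 mismatch were counted separately to describe base calls, over reads in which the base was not at an end. At base 29 of mt-Ts1 (base 32 of the usual numbering) another base than C was read in 28.7% ± 11.6 (SD, n = 16) of reads in PANDORA-seq and 67.4% ± 8.12 (SD, n = 14) in traditional-seq, mostly as C29T, since T was 84.5% and 88.1% of the other bases. The libraries ranged from 12.5% to 37.7% (median 29.96%) in WT and from 6.10% to 56.7% (median 30.4%) in AD PANDORA-seq, and from 59.8% to 75.8% (median 69.4%) in WT and 48.0% to 76.2% (median 69.3%) in AD traditional-seq. AD and WT overlapped in both protocols, while only 1 PANDORA-seq library, at 56.7%, reached the range of traditional-seq. At the same base of mt-Ts2, base 18, another base was read in 0.0782% ± 0.0047 (SD, n = 16) and 0.111% ± 0.0297 (SD, n = 14) of reads. Of the 14 mitochondrial tRNAs with C at base 32, only mt-Tt, the threonine tRNA, which is also known to carry 3-methylcytidine there, had such a share, with 16.0% by PANDORA-seq against 23.4% by traditional-seq. The means of the other 12, mt-Ts2 among them, were at most 1.13%. Some of these means rest on few reads, with as few as 3 in a library for mt-Tf in PANDORA-seq and 13 for mt-Tk in traditional-seq. All of these shares count only reads that passed the site, so that they say nothing of molecules on which reverse transcription stopped.

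**Figure D4:**
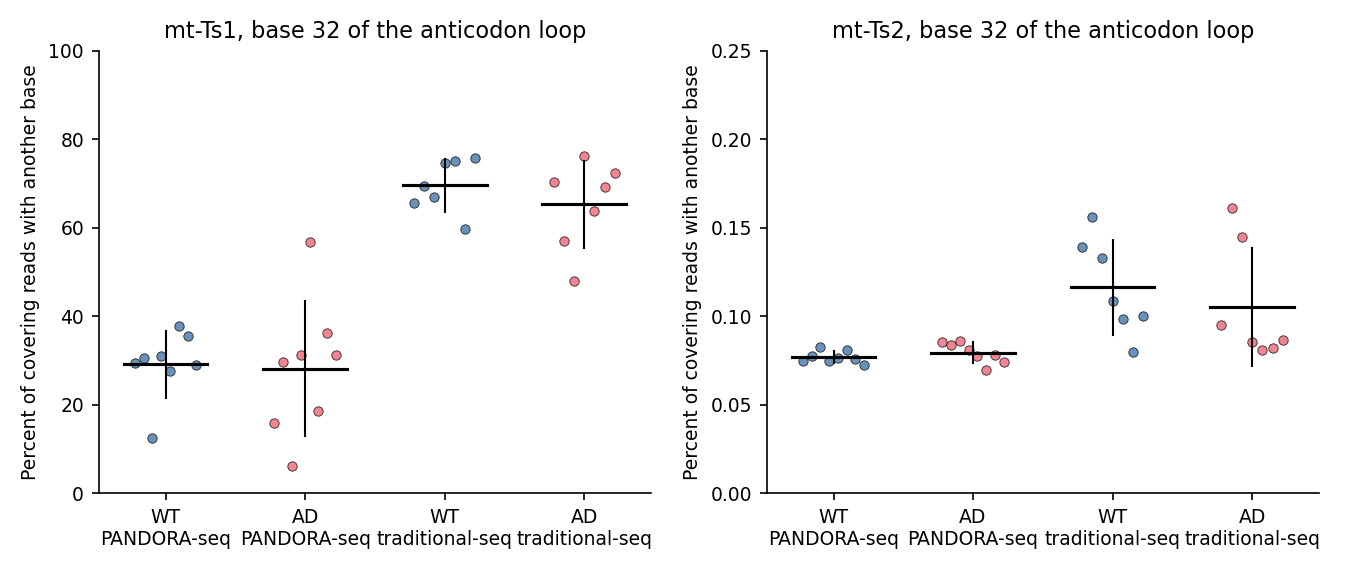
Percent of covering reads with another base than C at base 32 of the anticodon loop, for mt-Ts1 (left, axis to 100%) and mt-Ts2 (right, axis to 0.25%), by genotype and protocol; points are libraries, horizontal lines the mean and vertical lines 1 SD. mt-Ts1 has its higher values in traditional-seq, and every mt-Ts2 library is at or under 0.161%.

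The levels of the serine tRNAs were then compared between AD and WT mice within each protocol, in a fit of edgeR's quasi-likelihood test over all RNAs of the reference. Neither tRNA passed the test in either protocol. In PANDORA-seq the log2 fold change (AD over WT) was −0.17 for mt-Ts1 (SE 0.37, 95% interval −0.93 to 0.60, edgeR adjusted p = 0.870) and 0.01 for mt-Ts2 (SE 0.38, −0.79 to 0.80, edgeR adjusted p = 0.995). In traditional-seq it was −0.41 for mt-Ts1 (SE 0.31, −1.06 to 0.24) and −0.30 for mt-Ts2 (SE 0.31, −0.94 to 0.35), with an edgeR adjusted p = 0.996 for both. In PANDORA-seq the mt-Ts1 change turned to 0.21 without WT replicate 4, and the mt-Ts2 change turned its sign in 8 of 16 fits that left out 1 library (−0.24 to 0.19). Without WT traditional-seq replicate 2 the mt-Ts1 change was −0.0916, and without WT traditional-seq replicate 4 the mt-Ts2 change was −0.0735. In the same fits 53 of 1101 RNAs (4.81%) and 3 of the 22 mitochondrial tRNAs (13.6%) passed in PANDORA-seq. These calls changed with the reads used: 0 of 1069 RNAs passed with reads of 15 to 40 nt, which leaves out all longer reads. With each length scaled by all reads of that length 26 of 1108 passed. In traditional-seq 0 of 665 RNAs (0%) passed with edgeR or DESeq2, with 10 at an unadjusted p under 0.05 in edgeR. In bulk cortex, fewer cells of a type and less RNA per cell cannot be told apart.

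The difference in the ratio of the serine tRNAs between genotypes was smaller than the spread between libraries. The mean log2 ratio of mt-Ts1 to mt-Ts2 per nt was −7.58 in WT and −7.51 in AD PANDORA-seq libraries (difference 0.073, exact permutation test over 12870 splits, p = 0.845), and −6.40 and −6.52 in traditional-seq (difference −0.12, exact permutation test over 3432 splits, p = 0.801). The PANDORA-seq difference changed sign without WT replicate 6 (−0.15), AD replicate 1 (−0.050) or AD replicate 6 (−0.0999), and the traditional-seq difference without WT replicate 2 (0.16) or WT replicate 5 (0.052). No difference between protocols in the change between genotypes passed for the levels, the ratio or the 5′ shares (5 tests, adjusted p = 0.847 for each, permutation test).

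By fragment type, 0 of the 6 serine tRNA features passed in either protocol, where 4 of the 65 mitochondrial features tested (6.15%) passed in PANDORA-seq and 0 of 55 (0%) in traditional-seq. With reads of 15 to 40 nt 0 of 64 passed in PANDORA-seq. The 5′ fragments of mt-Ts2 had a log2 fold change of 0.04 (SE 0.39, edgeR adjusted p = 0.981) in PANDORA-seq and −0.26 (SE 0.35, edgeR adjusted p = 0.999) in traditional-seq. The 5′ fragments of mt-Ts1 had −0.25 (SE 0.44, edgeR adjusted p = 0.821) and −0.56 (SE 0.34, edgeR adjusted p = 0.999). The share of reads over base 32 also lay at similar values in WT and AD, 63.4% ± 13.05 and 61.0% ± 8.46 (SD, n = 8 each) for mt-Ts1 in PANDORA-seq.

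Among single sequences a few differed, and all were long. Of the mt-Ts2 fragments abundant enough to test in PANDORA-seq, 4 of 112 passed (edgeR adjusted p below 0.05 with more than a 2-fold change), and of the mt-Ts1 fragments 1 of 43. All 5 were lower in AD and had 43 to 45 nt. Over all sequences 3624 of 188718 (1.92%) passed, 3548 of them lower in AD (1.88%) and 76 higher (0.0403%). Of the sequences of 43 to 45 nt 3448 of 17537 (19.7%) passed and were lower in AD, and of those of 15 to 42 nt 100 of 171181 (0.0584%), so that the calls on the serine tRNAs fell in the class in which most calls fell. Of the fragments of 15 to 42 nt, 0 of 102 for mt-Ts2 and 0 of 42 for mt-Ts1 passed, with 4 and 5 at an unadjusted p under 0.05 in edgeR. The 4 of mt-Ts2 had log2 fold changes under 0 (−1.70 to −0.98), and the 5 of mt-Ts1, all within bases 38 to 56, had log2 fold changes over 0 (1.06 to 1.42). Over all lengths 19546 of the 188718 sequences had an unadjusted p under 0.05, and at least 8796 of these had 43 to 45 nt. In the separate fit with reads of 15 to 40 nt, 7543 of 156055 sequences had an unadjusted p under 0.05. There 4 of 41 mt-Ts1 and 2 of 92 mt-Ts2 fragments did. All 10 mt-Ts2 fragments of 43 to 45 nt tested had a log2 fold change under 0, as had 14753 of the 17537 sequences of these lengths (84.1%), and 9 of the 10 had it at an unadjusted p under 0.05, as had 8796 of the 17537 (50.2%). In traditional-seq, with no reads of that length, 0 of 100 and 0 of 31 fragments passed with edgeR or DESeq2, beside 0 of 24841 (0%) over all sequences. Of these fragments 0 and 1 had an unadjusted p under 0.05 in edgeR, beside 360 of the 24841 sequences.

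The mt-Ts2 fragments that passed end 4 to 6 bases past the end of the 40-nt fragment, in or beyond the loop of the 7-pair repeat, which spans bases 41 to 44. Of these 4, 2 begin at base 1 and the others at bases 2 and 3. They and the mt-Ts1 fragment are shown because no other serine tRNA fragment passed the test between genotypes.
mt-Ts2 bases 1 to 45: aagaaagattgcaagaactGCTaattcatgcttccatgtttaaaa
mt-Ts2 bases 1 to 44: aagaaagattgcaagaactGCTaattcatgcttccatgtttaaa
mt-Ts2 bases 3 to 46: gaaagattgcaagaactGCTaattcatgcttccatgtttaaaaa
mt-Ts2 bases 2 to 46: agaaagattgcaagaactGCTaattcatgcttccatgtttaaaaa
mt-Ts1 bases 1 to 43: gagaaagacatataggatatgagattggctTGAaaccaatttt

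The 45-nt fragment of mt-Ts2 that begins at base 1 had 5.29 to 18.2 RPM (median 8.74) in WT and 0 to 4.23 RPM (median 0.335) in AD libraries, with no overlap (log2 fold change −3.67, SE 0.75, edgeR adjusted p = 0.00949). The 44-nt fragment had 10.2 to 38.1 RPM (median 19.9) in WT and 0.182 to 12.9 RPM (median 2.13) in AD libraries, with 7 of the 8 AD values under the lowest WT value (log2 fold change −2.56, edgeR adjusted p = 0.0283). The fragments from base 3 and from base 2 to base 46 had WT medians of 1.18 and 0.563 RPM and AD medians of 0.122 and 0.0108 RPM, with log2 fold changes of −3.03 and −3.36 (edgeR adjusted p = 0.0311 and 0.0397). The 43-nt fragment of mt-Ts1 was scarce, at 0.172 to 0.990 RPM (median 0.508) in WT and 0 to 0.376 RPM (median 0.0727) in AD libraries (log2 fold change −2.36, SE 0.59, edgeR adjusted p = 0.0386). The 4 mt-Ts2 fragments are a small part of the reads of that tRNA, whose 40-nt fragment alone had WT and AD medians of 10387 and 13323 RPM.

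**Figure D5:**
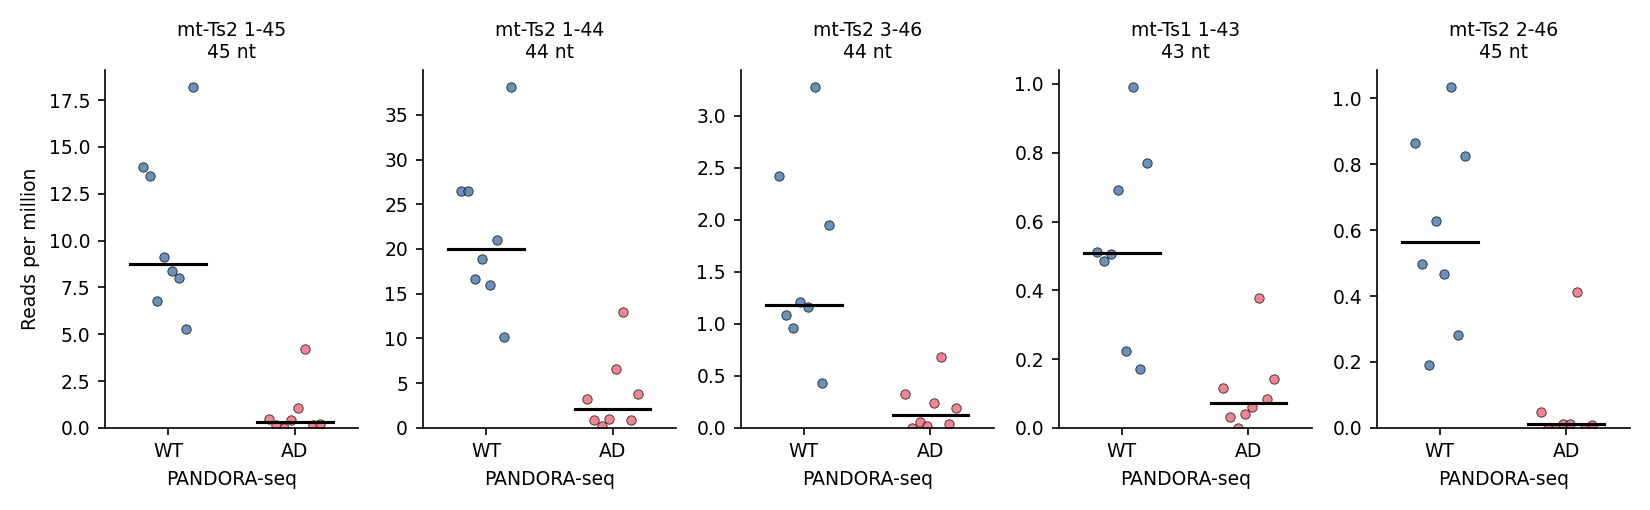
Levels in RPM of the 5 serine tRNA fragments that differed between genotypes, in the 8 WT and 8 AD PANDORA-seq libraries; points are libraries, lines medians, and each panel has its own axis from 0. Of these 5, only the mt-Ts2 fragment of bases 1 to 45 has no overlap between WT and AD, as have all reads of 45 nt together. In the other panels 1 AD library, replicate 6 in each, reaches the WT range.

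Reads of these lengths took a lower median share of AD libraries than of WT libraries. Reads of 45 nt of any RNA made up 3.70% to 5.35% of WT and 0.697% to 2.64% of AD libraries, and reads of 44 nt 4.74% to 11.99% and 0.699% to 4.75%. Reads of 43 nt, the length of the mt-Ts1 fragment, made up 2.80% to 4.61% of WT and 0.667% to 3.28% of AD libraries. The ranges overlapped at 43 and 44 nt and not at 45 nt. AD replicate 6, the AD library with the largest share of reads of 43 to 45 nt (10.7%), had the highest AD level of each called fragment. Relative to all reads of the same length, a comparison chosen after seeing the data, the mt-Ts2 fragments were lower in AD. The differences were −3.02 for bases 1 to 45, −1.25 for 1 to 44, −1.67 for 3 to 46 and −2.48 for 2 to 46. They are on the log2 scale of RPM within that length with 1 added. Only fragments that had passed were put on this scale, so other sequences of these lengths give no background for it. On this scale WT and AD also overlapped for bases 1 to 45, with 136 in the lowest WT and 160 in the highest AD library before the log. The difference of the mt-Ts1 fragment was −1.55. The exact permutation p-values, 0.000622 to 0.00606, describe libraries in which these fragments had already been picked for their difference.

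The calls rested on few libraries in part. The mt-Ts1 call was lost without any 1 of WT replicates 1, 2, 4, 6 or 8 or AD replicate 8. The number of mt-Ts2 calls was 1 without WT replicate 1 or 6, 2 without AD replicate 8 and 7 without AD replicate 5. Calls over all sequences moved too, from 3624 of 188718 to 2825 of 198833 without WT replicate 1, 2688 of 204432 without WT replicate 6, 4184 of 204427 without AD replicate 8 and 8869 of 200820 without AD replicate 5. The number of mt-Ts2 calls was 0 when reads were limited to 15 to 40 nt, which leaves these fragments out. Over all sequences 8 of 156055 were called at that setting.

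A few reads crossed the end of a serine tRNA gene. Beside mt-Ts2, whose gene follows that of mt-Th directly, 268 reads in 25 libraries joined the last bases of mt-Th to the first of mt-Ts2 with at least 4 bases on each side, 124 of them in WT and 100 in AD PANDORA-seq libraries. Past the 3′ end, 3 reads joined mt-Ts2 to mt-Tl2, and 2 reads joined mt-Ts1 to the sequence after it. A tail longer than CCA, as in CCAC or CCACC, was rare: 5 reads of mt-Ts1 ended in CCAC, 5 in CCACC and 1 in CCACCA, and 5 reads of mt-Ts2 ended in CCAC.

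Across libraries, mt-Ts2 rose and fell most like mt-Tl2, mt-Te and mt-Ty in PANDORA-seq (Spearman correlations of RPM of 0.91, 0.90 and 0.89 over 16 libraries) and like mt-Tf, mt-Tw and mt-Tt in traditional-seq (0.75, 0.66 and 0.63 over 14 libraries). mt-Ts1 was most like mt-Tw, mt-Tk and mt-Tv in PANDORA-seq (0.76, 0.75 and 0.74) and like mt-Tp, mt-Te and mt-Tm in traditional-seq (0.78, 0.74 and 0.70). The serine tRNAs themselves had a correlation of 0.71 by PANDORA-seq but 0.03 by traditional-seq. The libraries share their totals and their makeup by length, so that these values describe the libraries and carry no test.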

How the data were processed

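Small RNAs of cortex were read in 30 libraries. The deposited tables hold the counts of each distinct read sequence of a library, made by the authors with adapters removed and without normalisation; the submitters' notes name mm39, and the lengths kept were 15 to 45 nt. The authors then classified reads with SPORTS1.1, whose output was not used here.

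Reads were matched as whole sequences, without mismatch, to the GENCODE M21 (GRCm38) mitochondrial tRNAs with CCA added, by scripts in Python 3.11.15 and g++ 11.4.0. A 5′ fragment began at base 1, a 3′ fragment reached the last encoded base or the tail, and the rest were internal. Sums were divided by all reads of the library (RPM). Groups were taken from the labels. Genotypes were compared within a protocol with the quasi-likelihood test of edgeR 4.0.16 (R 4.3.3, low counts removed by filterByExpr, TMM scaling, Benjamini-Hochberg adjustment, threshold 0.05), over all RNAs, all fragment types or all distinct sequences; sequences also needed a fold change over 2. Protocols were compared by permutation of log2(RPM + 0.1) or of shares with 100000 shuffles, adjusted over the mitochondrial tRNAs, and ratios between genotypes by exact permutation of all splits; tests were two-sided. DESeq2 1.42.0, other scalings, filters, lengths and libraries left out were tried as alternatives. Scripts were tested on simulated counts with 1 fixed dispersion for every feature and no shift in read length between genotypes. With PANDORA-seq sequences, 98.8% of 4-fold and 15.3% of 2-fold changes were recovered over 182082 sequences, and with traditional-seq sequences 98.9% and 27.5% over 23849. False calls were 3.96% and 0.870% of the calls on sequences, and 6.86% and 3.38% of those on RNAs. The spread was not taken from these libraries, so these rates do not give the power for the fragments described here.

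Named fragments were, per tRNA and protocol, the 4 most abundant, the most abundant of each type and up to 5 called in each direction with the smallest adjusted p. The members and lists were chosen with earlier results of these data known. The libraries are biological replicates per the design text, and the study counts 8 mice a group in PANDORA-seq and 7 in traditional-seq. Correlations of deviations by replicate number ran from −0.4553 to 0.4282 in PANDORA-seq and from −0.4265 to 0.4637 in traditional-seq. These values showed no steady pairing by number but cannot exclude one. The same mice in both protocols are not stated either, so all libraries were treated as independent. Pairs by the file-name code that 14 libraries of each protocol share were an alternative, as was a block by replicate number. Depth, 54926347 to 105876141 reads in PANDORA-seq and 9370669 to 17053412 in traditional-seq, sets the precision of rare fragments. Nuclear copies of these tRNAs were not analysed here. Some details of the transgenes are not reported here.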

Additional observations from a re-analysis of the deposited data

Results flagged for a closer look

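Of 120 groups of 7 or 8 libraries examined for a library far from the others of its group, 21 had one; for normally distributed values chance flags about 1 group in 20, and many of these values are skewed or near 0. Several of these values come from the same library and are not independent of each other.

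For mt-Ts1, WT PANDORA-seq replicate 4 had 240.5 RPM against at most 122 RPM in the other WT libraries, and it was also apart for bases 1 to 31 (112 RPM), 12 to 30 (2.27 RPM) and 1 to 26 (2.63 RPM). WT traditional-seq replicate 2 had 1642 RPM of mt-Ts1 against at most 650 RPM, of which bases 1 to 21 gave 1225 RPM against at most 156 RPM, and its share of mt-Ts2 3′ fragments was 0.0162%. The log2 ratio of mt-Ts1 to mt-Ts2 per nt was −9.12 in WT PANDORA-seq replicate 6, against −7.82 or more in the others.

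Among other mt-Ts1 fragments, bases 1 to 25 had 18.8 RPM in WT traditional-seq replicate 5, bases 1 to 30 had 4.55 RPM in WT traditional-seq replicate 7, bases 50 to 71 had 0.320 RPM in AD traditional-seq replicate 6 and bases 1 to 26 had 241 RPM in AD traditional-seq replicate 7. In AD PANDORA-seq, bases 12 to 30 had 3.03 RPM in replicate 7, bases 1 to 21 had 0.629 RPM in replicate 5 and bases 11 to 26 had 0.0825 RPM in replicate 1.

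For mt-Ts2, AD traditional-seq replicate 2 had 11.6 RPM of bases 1 to 40 and 4.35 RPM of bases 1 to 39. Replicate 7 had 0.0858 RPM of bases 23 to 61, where the other AD traditional-seq libraries had 0. Replicate 4 had 20637 RPM of bases 1 to 19 against at most 7960 RPM. AD PANDORA-seq replicate 5 had 8.36 RPM of bases 1 to 19 and 0.339 RPM of bases 3 to 21. No reason for any of these values was tested.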

How the results depend on the processing

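Over 30 results, 299 alternatives were run, 151 of which left out 1 library; 254 kept the direction and the side of the threshold (counts within 1.5 times), 5 lost the threshold, 21 turned the direction and 19 moved a count. No value that turned its direction had passed its test. With the replicate block, which pairs libraries that share only a number, the mt-Ts1 level in PANDORA-seq (AD over WT, log2) was 0.0047 and the mt-Ts2 level −0.0357, 2 mitochondrial fragment types passed in place of 4, and 1 and 5 sequences of mt-Ts1 and mt-Ts2. Over all sequences 5033 of 188718 were called with this block, against 3624 of 188718. The mt-Ts2 level was −0.0387 with library sizes in place of TMM, −0.0188 with no filter on low counts and −0.136 with reads of 15 to 40 nt. With reads of 15 to 40 nt, a setting that leaves out the called lengths, 0 fragment types passed, and 0 sequences of either tRNA. There 8 of 156055 sequences and 0 of 1069 RNAs passed in all. Called sequences of mt-Ts1 numbered 2 with the likelihood ratio test, 2 with DESeq2 and 3 with at least 10 reads over all libraries, and those of mt-Ts2 8 with DESeq2 and 8 with at least 10 reads; over all sequences 6699 and 7427 of 188718 and 56528 of 3368140 were called, against 3624 of 188718. Between protocols, mt-Ts2 had a log2 difference of −0.153 as a share of mitochondrial tRNA reads. The 5′ share of mt-Ts1 differed by 8.64 points in WT alone, 6.55 in AD alone and 17.2 with 1 mismatch allowed, the 3′ share of mt-Ts2 by 0.00218 with reads of 15 to 40 nt and 0.00467 in AD alone, and that of mt-Ts1 by −0.00912 with ends up to 2 nt inside and −0.0685 with 1 mismatch allowed; the cause was not tested. Without 1 library each, the mt-Ts1 level in PANDORA-seq ranged from −0.344 to 0.207 and the mt-Ts2 level from −0.244 to 0.193 (in traditional-seq −0.496 to −0.0916 and −0.500 to −0.0735), called sequences from 0 to 1 and from 1 to 7, and the log2 ratio between genotypes from −0.147 to 0.207 in PANDORA-seq and −0.328 to 0.158 in traditional-seq. Depth limits the shares of 3′ fragments, which rest on as few as 7 reads in a library.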

Other observations

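A mismatch inside mt-Ts1, at base 20 counted from the 5′ end, differed between single libraries. Another base than T, mostly T20G, was read there in 31.8% of covering reads of AD traditional-seq replicate 3, 21.6% of AD PANDORA-seq replicate 3, 15.0% of WT PANDORA-seq replicate 6 and 7.67% of WT PANDORA-seq replicate 8. In 23 of the 30 libraries it was read in less than 1% of reads. At base 59 of mt-Ts2, the last before the tail, another base than A, mostly A59C, was read in 11.9% ± 5.50 (SD, n = 16) of reads in PANDORA-seq and 7.95% ± 6.81 (SD, n = 14) in traditional-seq, from as few as 13 covering reads in a library. Base 59 of mt-Ts2, at chrM:11671, is also the first base of mt-Tl2. The cause of these calls was not tested.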
